A study of Mus musculus with 9 samples.

Results

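The 29 genes described here encode the enzymes of cholesterol synthesis, the SREBP factors' control proteins, and proteins that carry, store or export cholesterol. They were chosen by symbol: 20 synthesis enzymes in the order of the pathway, 4 genes of SREBP control, 3 of transport and storage, and 2 of efflux. All 29 were found among the 49315 gene identifiers counted, and all 29 passed the filter on low counts that left 18211 genes for testing.

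RNA with poly-A tails was sequenced from 9 samples of pancreatic stellate cells, the fibroblast-like cells that deposit matrix in the pancreas. The cells came from the mouse strain C57BL6, had immortalised spontaneously, and expressed Cas9 and 1 guide RNA from lentivirus. They were selected with puromycin in medium with serum and used as polyclonal populations, not single clones. HIF1a-ko hypoxia cells carried the guide HIF1a sg2 and were kept at 0.5% oxygen for 48 h. R26 hypoxia cells carried the control guide R26 sg1 and were kept at 0.5% oxygen for 48 h, and R26 normoxia cells carried R26 sg1 at 20% oxygen for 48 h. Each group had 3 libraries. The labels do not tie them to separate cultures, and the p-values reflect the spread among libraries alone, possibly no more than technical variation. The comparisons share libraries: R26 hypoxia enters both the oxygen comparison (against R26 normoxia) and the guide comparison (HIF1a-ko hypoxia against it). The Hif1a guide in normoxia is not analysed here.

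Cells make cholesterol from acetyl-CoA through mevalonate, isoprenoid diphosphates and squalene, and then turn squalene into sterols in a run of membrane-bound steps. Several of the steps from squalene on consume molecular oxygen. When membranes of the endoplasmic reticulum are rich in sterols, the Insig proteins hold Scap and the transcription factor precursor SREBP-2 there; when sterols are scarce, SREBP-2 is cleaved and switches on most synthesis genes and Insig1. The liver X receptors, which sense oxysterols, switch on export genes such as Abca1 and Abcg1.

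Depth lay between 43837809 and 107840223 counts per library, with 1 deeper library (over 80000000 counts) in every group. Levels are given in CPM, which here means edgeR's counts scaled to library size and TMM factors, and 3 values in a row are libraries 1, 2 and 3 of the named group. Differences are log2 fold changes ± SE with p-values from edgeR's quasi-likelihood test, adjusted by Benjamini-Hochberg over all 18211 genes. Hif1a itself had 123, 117 and 125 CPM in HIF1a-ko hypoxia, 178, 169 and 207 CPM in R26 hypoxia and 194, 192 and 225 CPM in R26 normoxia. Each HIF1a-ko library was below each R26 library (-0.60 ± 0.09, adjusted p = 0.000319 against R26 hypoxia), although editing by Cas9 can leave transcript levels as they are, which makes this a weak check of the labels. The summed level of 10 fibroblast or stellate markers was 13077 to 13524 CPM in HIF1a-ko hypoxia, 19386 to 20953 CPM in R26 hypoxia and 17176 to 18925 CPM in R26 normoxia. Of the 10, 3 were higher and 2 lower in R26 hypoxia than in R26 normoxia, and 1 was higher and 5 lower in HIF1a-ko hypoxia than in R26 hypoxia. Acta2, smooth muscle actin, went against the sum, with means of 1142 CPM in HIF1a-ko hypoxia, 786 CPM in R26 hypoxia and 1520 CPM in R26 normoxia (-0.95 ± 0.08, adjusted p = 3.91e-05 in the oxygen comparison and 0.54 ± 0.08, adjusted p = 0.000279 in the guide comparison). Dcn averaged 342 CPM in HIF1a-ko hypoxia, 349 CPM in R26 hypoxia and 733 CPM in R26 normoxia. Pdgfra averaged 212 CPM in HIF1a-ko hypoxia, 687 CPM in R26 hypoxia and 486.0 CPM in R26 normoxia. Des and Lum, stellate and fibroblast markers in that list, were low, at group means of 1.76 to 2.97 CPM. Both were lower in the deeper libraries. Des was at 0.246 to 1.32 CPM there and at 1.85 to 3.73 CPM in the shallower ones. Lum was at 0.236 to 2.01 and 2.37 to 4.04 CPM in the same order. Summed markers of several other cell types were also lower in the deeper libraries. Summed epithelial markers (5 genes) were at 12.9 to 42.5 CPM in the 3 deeper libraries and at 55.2 to 103.1 CPM in the 6 shallower ones. Leukocyte markers (6 genes) were at 8.25 to 16.3 and 25.2 to 42 CPM in the same order, and adipocyte markers (3 genes) at 0.0113 to 0.0416 and 14.5 to 29.1 CPM. Endothelial markers (4 genes) were at 4.5 to 6.18 and 9.58 to 13.1 CPM. Within these lists, the deeper and shallower libraries overlapped for Krt19, Cd3e, Cd79a, Kdr and Vwf. The sum of acinar and islet markers (7 genes) went with the guide instead, at 4.49 to 7.06 CPM in HIF1a-ko hypoxia, 10.7 to 12.9 CPM in R26 hypoxia and 10.7 to 14.9 CPM in R26 normoxia. Cela1 made up most of that sum, at 4.21 to 12.7 CPM. Of the others, Gcg went with depth, at 0 in the deeper libraries and 0.338 to 1.73 CPM in the shallower ones. Cpa1 and Prss2 did not exceed 0.244 CPM, and Ins1 and Ins2 were at 0 in all 9. Single markers also differed between groups. Krt19, an epithelial keratin, was 2.87-fold higher in R26 hypoxia than in R26 normoxia and 3.09-fold lower in HIF1a-ko hypoxia than in R26 hypoxia (adjusted p = 0.00837 and 0.00269). Against R26 hypoxia, the acinar markers Cela1 and Cpb1 were 2.33-fold and 4.2-fold lower in HIF1a-ko hypoxia (adjusted p = 2.36e-05 and 0.000712). Endothelial markers differed in direction. Against the same group, Kdr was 2.37-fold higher (adjusted p = 0.015) and Vwf 1.71-fold lower (adjusted p = 0.0102) in HIF1a-ko hypoxia. Pecam1 and Cdh5 were not called. Vwf was also 1.6-fold lower in R26 hypoxia than in R26 normoxia (adjusted p = 0.0208). The part of all these markers in the results below was not tested. The members' values in the shallower libraries alone are given where they change a call.

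In low oxygen, R26 cells held less messenger RNA for most of the synthesis pathway than R26 cells in normoxia, and cells with the Hif1a guide held more of it than R26 cells in the same low oxygen. Between R26 hypoxia and R26 normoxia, 22 of the 29 genes passed the test, 3 higher and 19 lower, where 25.8% of all genes tested passed (13.1% higher and 12.7% lower). With the library number as a term (a replicate block), 24 passed, 3 higher and 21 lower. The added ones were Nsdhl (adjusted p = 0.00468) and Scap (adjusted p = 0.00372), while 7411 rather than 4697 of all genes passed. The labels state no pairing, and the agreement of same-numbered libraries follows depth, as described below. In HIF1a-ko hypoxia against R26 hypoxia, 20 of 29 passed, 17 higher and 3 lower, against 46.7% of all genes (22.6% higher and 24.1% lower). The median log2 fold change of the 29 was -0.42 in the oxygen comparison and 0.36 in the guide comparison, and that of all genes was -0.01 in both. TMM scaling itself keeps the median of all genes close to no change. Between HIF1a-ko hypoxia and R26 normoxia, 12 of 29 (41.4%) passed, 4 higher and 8 lower, a share close to the 42% of all genes (19.9% higher and 22.1% lower). The 4 higher became 2 without R26 normoxia 1, R26 normoxia 2 or HIF1a-ko hypoxia 1. In bulk RNA of this kind, fewer cells that use a gene and less of its RNA per cell cannot be told apart.

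Among the 20 synthesis enzymes, 16 were lower and none higher in R26 hypoxia than in R26 normoxia by edgeR; at an unadjusted p under 0.05, 17 were lower and 0 higher, and DESeq2 called 16 lower and 0 higher. In HIF1a-ko hypoxia against R26 hypoxia, 14 of the 20 were higher and none lower (15 and 0 at an unadjusted p under 0.05, and 15 and 0 by DESeq2). Their median log2 fold changes were -0.55 and 0.49. Both counts use the same R26 hypoxia libraries. By edgeR, 12.7% of all genes were lower in the first comparison and 22.6% higher in the second. Shares of all genes at an unadjusted p under 0.05 and by DESeq2 were not counted.

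**Figure D1:**
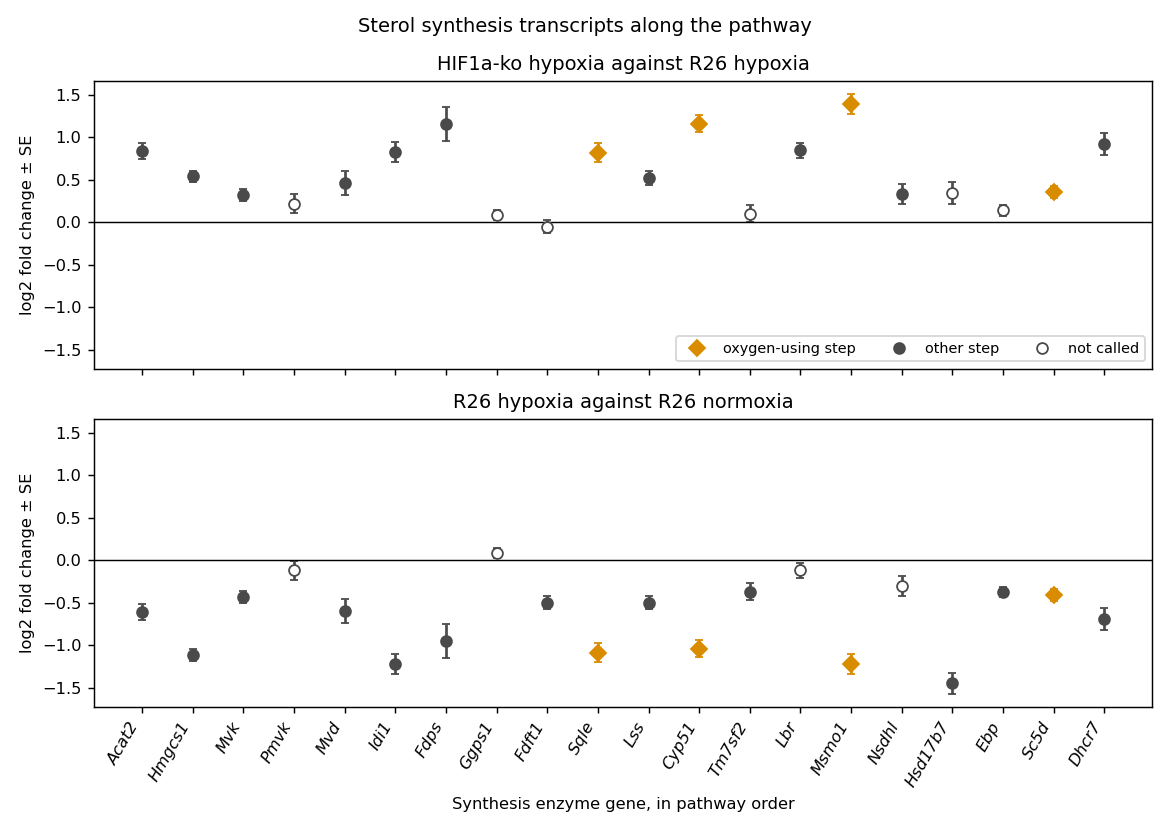
Log2 fold change (vertical axis, bars ± SE of the fit) of the 20 synthesis genes in pathway order, for HIF1a-ko hypoxia against R26 hypoxia (upper panel) and R26 hypoxia against R26 normoxia (lower panel). Diamonds are the 4 oxygen-using enzymes, circles the others, and open symbols did not pass the test; 14 genes lie called above 0 in the upper panel and 16 called below 0 in the lower one.

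The promoters of 23 of the 29 genes, from 250 bases before to 50 bases after the gene's start in RefSeq, were in the RefSeq table for GRCm38.p6. That start can differ from the first base of the GENCODE gene given below. The windows of 5 genes are printed because these carry the main patterns described below. Hmgcs1 has the sterol element, Cyp51 and Msmo1 are oxygen-using enzymes that were low in R26 hypoxia, Insig1 had the largest fall of the 29 in R26 hypoxia, and Abca1 belongs to efflux. Capitals mark the CCAAT box on either strand, the letters bound by NF-Y, and the sterol element TCACNCCAC on either strand; the sequences run 5′ to 3′ on the gene's strand.
Hmgcs1 promoter (chr13:119690101-119690400, plus strand): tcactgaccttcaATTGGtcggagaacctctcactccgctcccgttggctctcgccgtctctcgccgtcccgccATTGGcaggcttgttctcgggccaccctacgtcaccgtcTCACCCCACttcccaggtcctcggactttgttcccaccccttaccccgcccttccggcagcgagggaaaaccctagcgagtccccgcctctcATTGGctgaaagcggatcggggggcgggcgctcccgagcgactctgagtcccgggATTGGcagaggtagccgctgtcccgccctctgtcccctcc
Cyp51 promoter (chr5:4104648-4104947, minus strand): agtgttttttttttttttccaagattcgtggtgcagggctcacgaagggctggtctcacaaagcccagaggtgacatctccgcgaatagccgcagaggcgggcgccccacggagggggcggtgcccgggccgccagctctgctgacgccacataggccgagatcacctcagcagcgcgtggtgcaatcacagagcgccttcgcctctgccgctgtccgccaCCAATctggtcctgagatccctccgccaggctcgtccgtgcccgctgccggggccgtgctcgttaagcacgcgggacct
Msmo1 promoter (chr8:64733529-64733828, minus strand): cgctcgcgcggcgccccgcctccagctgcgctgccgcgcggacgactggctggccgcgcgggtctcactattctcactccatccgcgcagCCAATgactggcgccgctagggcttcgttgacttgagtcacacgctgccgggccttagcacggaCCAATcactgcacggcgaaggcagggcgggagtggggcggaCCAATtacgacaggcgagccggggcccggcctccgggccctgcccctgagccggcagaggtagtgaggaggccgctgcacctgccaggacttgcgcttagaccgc
Insig1 promoter (chr5:28071162-28071461, plus strand): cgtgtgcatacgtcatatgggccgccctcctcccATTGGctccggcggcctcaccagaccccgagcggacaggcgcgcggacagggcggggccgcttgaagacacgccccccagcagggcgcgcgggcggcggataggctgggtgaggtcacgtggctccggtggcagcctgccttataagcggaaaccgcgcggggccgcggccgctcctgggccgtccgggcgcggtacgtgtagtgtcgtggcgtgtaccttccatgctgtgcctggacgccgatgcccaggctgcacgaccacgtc
Abca1 promoter (chr4:53159846-53160145, minus strand): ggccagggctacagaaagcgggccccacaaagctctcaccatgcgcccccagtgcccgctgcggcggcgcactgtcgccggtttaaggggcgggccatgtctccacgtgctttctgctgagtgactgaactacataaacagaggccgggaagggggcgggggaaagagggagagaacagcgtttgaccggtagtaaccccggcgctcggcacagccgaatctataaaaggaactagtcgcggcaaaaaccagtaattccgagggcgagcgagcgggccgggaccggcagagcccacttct
NF-Y is known to act beside SREBP at sterol-regulated promoters. CCAAT or its reverse complement was present in 20 of 23 genes (87%), counting a gene once if any of its windows held it, against 41.1% of 27025 genes in the table. Counted by window, it was in 69% of the genes' windows and 37.4% of all. The sterol element TCACNCCAC matched only Hmgcs1 (4.35%, against 1.44% of all genes), 137 bases before the RefSeq start, although looser sterol elements were not searched. The E-box CACGTG was in 6 genes (26.1%, against 8.09%), namely Hsd17b7, Sc5d, Dhcr7, Scap, Insig1 and Abca1. The hypoxia element core ACGTG, which lies within CACGTG, was in the same 6 (26.1%, against 21.8%), and the liver X receptor element, AGGTCA repeated after 4 bases, was in none of these windows (0.0148% of all genes). A match is a run of letters, not a shown binding site, and a missing match speaks only of this window.

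The first enzymes make mevalonate and its products. Acat2, the thiolase that joins acetyl-CoA units in the cytosol, stood at 45.9, 38.9 and 50.6 CPM in HIF1a-ko hypoxia, 24.4, 24 and 26.9 CPM in R26 hypoxia and 38.5, 36.6 and 40.1 CPM in R26 normoxia. Its 3 R26 hypoxia libraries lay below all 6 others, with log2 fold changes of -0.61 ± 0.09, adjusted p = 0.00145 for R26 hypoxia against R26 normoxia and 0.84 ± 0.09, adjusted p = 6.28e-05 for HIF1a-ko hypoxia against R26 hypoxia. Of its stretches of 75 bases, 33.9% occur in other genes, Acat3 foremost, so part of its count is uncertain. Hmgcs1, the synthase that makes HMG-CoA (ENSMUSG00000093930, chromosome 13, 119690379 to 119708260, plus strand), was measured at 111, 98.9 and 121 CPM in HIF1a-ko hypoxia, 79.2, 71.2 and 77.5 CPM in R26 hypoxia and 168, 163 and 165.5 CPM in R26 normoxia. No group overlapped another: HIF1a-ko hypoxia lay between the others. Hmgcs1 fell 2.18-fold in R26 hypoxia relative to R26 normoxia (-1.12 ± 0.07, adjusted p = 1.07e-05), was 1.45-fold higher in HIF1a-ko hypoxia than in R26 hypoxia (0.54 ± 0.07, adjusted p = 0.000222), and remained below R26 normoxia in HIF1a-ko hypoxia (-0.58 ± 0.07, adjusted p = 0.000155).

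Mvk, mevalonate kinase, averaged 23.2 ± 2.29 CPM in HIF1a-ko hypoxia, 18.6 ± 0.585 CPM in R26 hypoxia and 25.1 ± 0.632 CPM in R26 normoxia (SD, n = 3 each, here and below). It was lower in R26 hypoxia than in normoxia (-0.43 ± 0.07, adjusted p = 0.00268) and higher in HIF1a-ko hypoxia than in R26 hypoxia (0.32 ± 0.07, adjusted p = 0.00606). Pmvk, the next kinase, averaged 9.78 ± 1.05 CPM in HIF1a-ko hypoxia, 8.44 ± 0.826 CPM in R26 hypoxia and 9.15 ± 0.89 CPM in R26 normoxia, its groups overlapped, and none of its comparisons passed. Mvd, the decarboxylase that yields isopentenyl diphosphate, had 21.2, 16.9 and 20.8 CPM in HIF1a-ko hypoxia, 16, 11 and 15.7 CPM in R26 hypoxia and 22.7, 21.8 and 20.7 CPM in R26 normoxia. R26 hypoxia was lowest, without overlap with either group, with -0.60 ± 0.14, adjusted p = 0.0125 against R26 normoxia. HIF1a-ko hypoxia was higher than R26 hypoxia (0.46 ± 0.14, adjusted p = 0.0227), which was not called without HIF1a-ko hypoxia 1 or HIF1a-ko hypoxia 3 (adjusted p = 0.0718 or 0.0659).

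Idi1, the isomerase of isopentenyl diphosphate, had 16.9, 14.7 and 19.9 CPM in HIF1a-ko hypoxia, 9.78, 8.61 and 10.4 CPM in R26 hypoxia and 24, 22.2 and 21.3 CPM in R26 normoxia. The 3 groups were separate, and Idi1 fell 2.33-fold in R26 hypoxia relative to normoxia (-1.22 ± 0.12, adjusted p = 0.000108) and was 1.78-fold higher with the Hif1a guide (0.83 ± 0.12, adjusted p = 0.000283). Its shortfall in HIF1a-ko hypoxia against R26 normoxia (-0.39 ± 0.11, adjusted p = 0.0199) was not called without R26 normoxia 1, HIF1a-ko hypoxia 1 or HIF1a-ko hypoxia 2 (adjusted p = 0.0702, 0.0716 or 0.0669). Of its stretches of 75 bases, 23.6% occur in other genes.

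Fdps, which builds farnesyl diphosphate, was found at 41.4, 28.6 and 39.1 CPM in HIF1a-ko hypoxia, 17.3, 11.3 and 19.9 CPM in R26 hypoxia and 31.3, 27.8 and 35.2 CPM in R26 normoxia. R26 hypoxia lay below both other groups, which overlapped each other. The log2 fold changes were -0.95 ± 0.20, adjusted p = 0.00821 for R26 hypoxia against R26 normoxia and 1.16 ± 0.20, adjusted p = 0.00118 for HIF1a-ko hypoxia against R26 hypoxia. Gm43738 overlaps 26.7% of its exon length on the same strand. Ggps1 leads off the sterol path to geranylgeranyl diphosphate, the lipid for protein prenylation, and averaged 39.3 ± 0.688 CPM in HIF1a-ko hypoxia, 36.9 ± 3.14 CPM in R26 hypoxia and 34.7 ± 0.93 CPM in R26 normoxia. It passed only between HIF1a-ko hypoxia and R26 normoxia (0.18 ± 0.06, adjusted p = 0.0455), and not without R26 normoxia 1, R26 normoxia 2, R26 normoxia 3, R26 hypoxia 1, HIF1a-ko hypoxia 1 or HIF1a-ko hypoxia 2 (adjusted p = 0.0808, 0.135, 0.0518, 0.062, 0.0566 or 0.117). Without R26 hypoxia 3, Ggps1 was also called higher in HIF1a-ko hypoxia than in R26 hypoxia (adjusted p = 0.0472), as it was in the 6 shallower libraries (adjusted p = 0.0468).

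Fdft1, squalene synthase and the first step committed to sterols, was low in both hypoxic groups. It stood at 55.1, 49.7 and 57.2 CPM in HIF1a-ko hypoxia, 56.6, 50.6 and 60.8 CPM in R26 hypoxia and 79, 77 and 81.3 CPM in R26 normoxia. Both hypoxic groups overlapped each other and lay below R26 normoxia: -0.50 ± 0.08, adjusted p = 0.00132 for R26 hypoxia against R26 normoxia, -0.55 ± 0.08, adjusted p = 0.000297 for HIF1a-ko hypoxia against R26 normoxia, and -0.05 ± 0.08, adjusted p = 0.61 for HIF1a-ko hypoxia against R26 hypoxia. Exons of Ctsb overlap 18.3% of its exon length on the opposite strand, and the strand setting of the counting is not given in the sources used here.

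**Figure D2:**
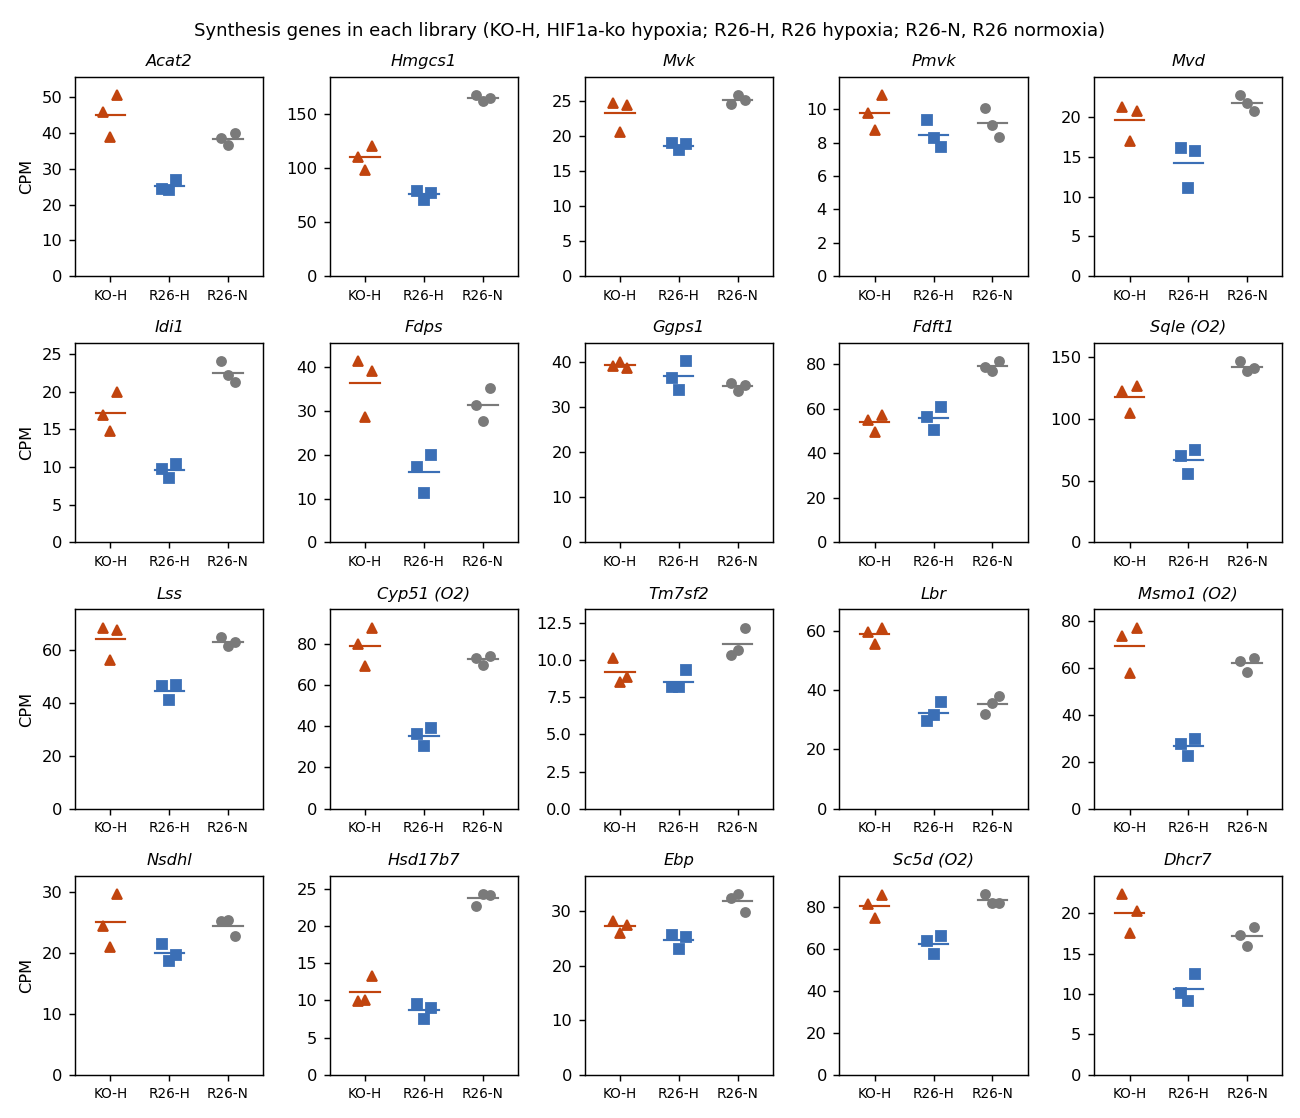
CPM (vertical axes from 0, 1 panel per gene) of the 20 synthesis genes in HIF1a-ko hypoxia (KO-H), R26 hypoxia (R26-H) and R26 normoxia (R26-N); points are libraries 1 to 3 from left to right and lines are group means. Enzymes marked O2 use molecular oxygen, and all R26-H points lie below both other groups in the panels without overlap, but not in those of Pmvk, Ggps1, Fdft1, Tm7sf2, Lbr and Nsdhl.

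From squalene on, 9 of 11 enzymes were lower in R26 hypoxia than in R26 normoxia and 8 of 11 were higher in HIF1a-ko hypoxia than in R26 hypoxia. Of all genes tested, 12.7% were lower in the first comparison and 22.6% higher in the second. The 4 that use molecular oxygen passed in both comparisons. Sqle, squalene monooxygenase (ENSMUSG00000022351, chromosome 15, 59315077 to 59331192, plus strand), had 122, 104.5 and 126 CPM in HIF1a-ko hypoxia, 69.4, 55.1 and 74.5 CPM in R26 hypoxia and 146, 138 and 141 CPM in R26 normoxia. R26 hypoxia lay lowest and HIF1a-ko hypoxia in between, all 3 groups apart, with -1.09 ± 0.11, adjusted p = 0.000133 for R26 hypoxia against R26 normoxia and 0.82 ± 0.11, adjusted p = 0.000188 for HIF1a-ko hypoxia against R26 hypoxia. HIF1a-ko hypoxia against R26 normoxia gave -0.27 ± 0.11, adjusted p = 0.0737. It was called without R26 hypoxia 2 or R26 hypoxia 3 (adjusted p = 0.0185 or 0.0409) and in the 6 shallower libraries (adjusted p = 0.0283).

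Cyp51, the demethylase of lanosterol (ENSMUSG00000001467, chromosome 5, 4081145 to 4104746, minus strand), stood at 79.5, 69.3 and 87.7 CPM in HIF1a-ko hypoxia, 36.1, 30.5 and 38.9 CPM in R26 hypoxia and 73.1, 69.8 and 73.9 CPM in R26 normoxia. Every R26 hypoxia library was below the other 6, which overlapped. Cyp51 fell 2.05-fold in R26 hypoxia relative to normoxia (-1.04 ± 0.10, adjusted p = 0.000127) and was 2.24-fold higher in HIF1a-ko hypoxia than in R26 hypoxia (1.16 ± 0.10, adjusted p = 1.39e-05).

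Msmo1, the methylsterol monooxygenase that starts removal of the methyl groups (ENSMUSG00000031604, chromosome 8, 64718139 to 64733792, minus strand), showed the largest guide difference of the 29 genes among those called. It was counted at 73.9, 57.8 and 77.3 CPM in HIF1a-ko hypoxia, 27.5, 22.6 and 29.6 CPM in R26 hypoxia and 63.1, 58.5 and 64.2 CPM in R26 normoxia. The R26 hypoxia values were all below the other 6: Msmo1 fell 2.33-fold in R26 hypoxia relative to normoxia (-1.22 ± 0.12, adjusted p = 0.000144), was 2.62-fold higher in HIF1a-ko hypoxia than in R26 hypoxia (1.39 ± 0.12, adjusted p = 1.54e-05), and gave 0.17 ± 0.12, adjusted p = 0.309 between HIF1a-ko hypoxia and R26 normoxia. Sc5d, the lathosterol oxidase, had 81.2, 74.7 and 85.5 CPM in HIF1a-ko hypoxia, 63.9, 57.5 and 66.1 CPM in R26 hypoxia and 86.2, 81.8 and 81.8 CPM in R26 normoxia. R26 hypoxia was again below the other 6 libraries, with -0.41 ± 0.07, adjusted p = 0.0019 against R26 normoxia and 0.36 ± 0.07, adjusted p = 0.00152 for HIF1a-ko hypoxia against R26 hypoxia.

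Msmo1 has partners in the demethylation cycle. Hsd17b7, the keto-reductase of that cycle, had 9.92, 10.1 and 13.2 CPM in HIF1a-ko hypoxia, 9.59, 7.5 and 9.02 CPM in R26 hypoxia and 22.6, 24.4 and 24.2 CPM in R26 normoxia. Both hypoxic groups were far below R26 normoxia, with -1.45 ± 0.12, adjusted p = 6.07e-05 for R26 hypoxia and -1.11 ± 0.12, adjusted p = 7.49e-05 for HIF1a-ko hypoxia. Hsd17b7 gave 0.34 ± 0.13, adjusted p = 0.0516 between HIF1a-ko hypoxia and R26 hypoxia, whose libraries did not overlap, and it was called without R26 hypoxia 1 or HIF1a-ko hypoxia 1 (adjusted p = 0.0453 or 0.0332), by DESeq2 (adjusted p = 0.0242) and in the 6 shallower libraries (adjusted p = 0.0114). Nsdhl, the dehydrogenase of the cycle, averaged 25.1 ± 4.45 CPM in HIF1a-ko hypoxia, 20 ± 1.42 CPM in R26 hypoxia and 24.6 ± 1.46 CPM in R26 normoxia. Its value of 0.33 ± 0.12, adjusted p = 0.045 for HIF1a-ko hypoxia against R26 hypoxia came with overlapping groups and was not called without R26 normoxia 1, R26 normoxia 2, R26 hypoxia 2, R26 hypoxia 3, HIF1a-ko hypoxia 1 or HIF1a-ko hypoxia 3 (adjusted p = 0.065, 0.0625, 0.134, 0.0948, 0.0745 or 0.132).

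Lbr and Tm7sf2 are sterol reductases that act after Cyp51, and Lbr was the only synthesis gene called higher in HIF1a-ko hypoxia than in both R26 groups. Lbr, which is also the lamin B receptor of the nuclear envelope, stood at 59.8, 55.5 and 61.1 CPM in HIF1a-ko hypoxia, 29.7, 31.7 and 36 CPM in R26 hypoxia and 31.9, 35.6 and 38.1 CPM in R26 normoxia. The HIF1a-ko libraries were above all 6 R26 libraries, which overlapped. The log2 fold changes were 0.85 ± 0.09, adjusted p = 3.5e-05 against R26 hypoxia, 0.74 ± 0.09, adjusted p = 0.000109 against R26 normoxia, and -0.12 ± 0.09, adjusted p = 0.396 for R26 hypoxia against R26 normoxia. Tm7sf2, the other reductase, averaged 9.18 ± 0.848 CPM in HIF1a-ko hypoxia, 8.56 ± 0.654 CPM in R26 hypoxia and 11.1 ± 0.988 CPM in R26 normoxia and was called lower only in R26 hypoxia against normoxia (-0.37 ± 0.10, adjusted p = 0.0248). That call was lost without R26 normoxia 2, R26 normoxia 3, R26 hypoxia 1 or R26 hypoxia 2 (adjusted p = 0.0515, 0.112, 0.0724 or 0.0799), while HIF1a-ko hypoxia against R26 normoxia (-0.27 ± 0.10, adjusted p = 0.0563) was called without R26 hypoxia 3 or HIF1a-ko hypoxia 1 (adjusted p = 0.0438 or 0.0376). The same comparison was called in the 6 shallower libraries (adjusted p = 0.0447).

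Lss, Dhcr7 and Ebp were all lower in R26 hypoxia than in R26 normoxia. Lss, which closes the rings to lanosterol, averaged 64.1 ± 6.76 CPM in HIF1a-ko hypoxia, 44.6 ± 3.19 CPM in R26 hypoxia and 63.1 ± 1.78 CPM in R26 normoxia, with -0.50 ± 0.08, adjusted p = 0.00195 for R26 hypoxia against R26 normoxia and 0.52 ± 0.08, adjusted p = 0.000553 for HIF1a-ko hypoxia against R26 hypoxia. Dhcr7, which makes cholesterol from its direct precursor, averaged 20.1 ± 2.46 CPM in HIF1a-ko hypoxia, 10.6 ± 1.71 CPM in R26 hypoxia and 17.2 ± 1.18 CPM in R26 normoxia, with -0.69 ± 0.13, adjusted p = 0.004 for R26 hypoxia against R26 normoxia and 0.92 ± 0.13, adjusted p = 0.000277 for HIF1a-ko hypoxia against R26 hypoxia. Ebp, the sterol isomerase, averaged 27.1 ± 1.12 CPM in HIF1a-ko hypoxia, 24.6 ± 1.4 CPM in R26 hypoxia and 31.8 ± 1.74 CPM in R26 normoxia and was lower in both hypoxic groups than in R26 normoxia (-0.37 ± 0.06, adjusted p = 0.00296 for R26 hypoxia and -0.23 ± 0.06, adjusted p = 0.0189 for HIF1a-ko hypoxia). The call for Ebp in HIF1a-ko hypoxia was lost without R26 normoxia 1, R26 normoxia 2, HIF1a-ko hypoxia 2 or HIF1a-ko hypoxia 3 (adjusted p = 0.0625, 0.0709, 0.0723 or 0.0762).

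The oxygen-using enzymes were set against the other 16. In R26 hypoxia against R26 normoxia the median log2 fold change of Sqle, Cyp51, Msmo1 and Sc5d was -1.06 (range -1.22 to -0.41), and that of the other 16 was -0.50 (range -1.45 to 0.09), a gap of -0.56. In HIF1a-ko hypoxia against R26 hypoxia the medians were 0.99 and 0.40, a gap of 0.59, and in HIF1a-ko hypoxia against R26 normoxia they were 0.04 and -0.05, a gap of 0.08. None of the 4 passed in that last comparison by edgeR or DESeq2, and 1 was lower at an unadjusted p under 0.05. The ranges overlapped: Sc5d fell less than the median of the 16, and Hsd17b7, Idi1 and Hmgcs1, which use no oxygen, had log2 fold changes of -1.45, -1.22 and -1.12. A fixed set of 4 enzymes is not a sample, so no test is given.

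Per library, the mean log2 CPM of the 4 oxygen-using genes minus that of the other 16 was 1.59, 1.57 and 1.62 in HIF1a-ko hypoxia. It was 1.14, 1.08 and 1.18 in R26 hypoxia, against 1.52, 1.47 and 1.50 in R26 normoxia. All 3 R26 hypoxia libraries lay below the other 6, and HIF1a-ko hypoxia (mean 1.59 ± 0.022, SD) lay above R26 normoxia (1.50 ± 0.026) without overlap. Against the 7 other enzymes that act after squalene, a comparison added after the values were seen, the gap between medians was -0.69 in the oxygen comparison and 0.65 in the guide comparison.

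**Figure D3:**
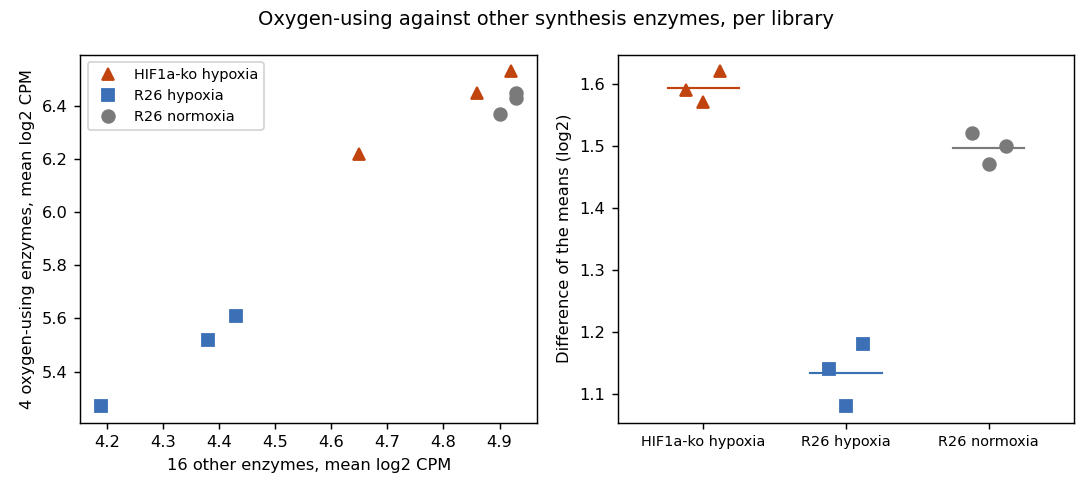
Left, mean log2 CPM of the 4 oxygen-using synthesis genes (vertical axis) against that of the 16 others (horizontal axis) in each library; right, the difference of the means per library, with lines at group means (log2 axis not starting at 0). R26 hypoxia differences lie at 1.08 to 1.18, HIF1a-ko hypoxia at 1.57 to 1.62 and R26 normoxia at 1.47 to 1.52.

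Variation inside the groups was shared among the enzymes. Library 2 was the lowest of the 3 for 18 of 20 synthesis genes in HIF1a-ko hypoxia and for 18 of 20 in R26 hypoxia, and for 11 of 20 in R26 normoxia. The share of all genes lowest in library 2 was not counted. A trait of the library thus cannot be told from one of these genes. The mean log2 CPM over the 20 genes was 5.18, 4.97 and 5.24 in HIF1a-ko hypoxia. It was 4.60, 4.40 and 4.67 in R26 hypoxia, against 5.23, 5.19 and 5.23 in R26 normoxia. The lowest HIF1a-ko library was thus above the highest R26 hypoxia library.

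Of the 4 SREBP control genes, 2 fell in R26 hypoxia and 1 rose, where 12.7% of all genes were lower and 13.1% higher. Srebf2, which encodes SREBP-2 (ENSMUSG00000022463, chromosome 15, 82147181 to 82205379, plus strand), stood at 347, 305 and 328.5 CPM in HIF1a-ko hypoxia, 211, 185 and 225 CPM in R26 hypoxia and 273, 275 and 282 CPM in R26 normoxia. R26 hypoxia was lowest and HIF1a-ko hypoxia highest, with no overlap: -0.42 ± 0.07, adjusted p = 0.00289 for R26 hypoxia against R26 normoxia, 0.66 ± 0.07, adjusted p = 6.3e-05 for HIF1a-ko hypoxia against R26 hypoxia, and 0.24 ± 0.07, adjusted p = 0.0243 for HIF1a-ko hypoxia against R26 normoxia. The last call was lost without R26 normoxia 1, R26 normoxia 2 or HIF1a-ko hypoxia 1 (adjusted p = 0.0755, 0.0667 or 0.0572). Scap, the sterol-sensing escort of SREBP, averaged 158.5 ± 9.58 CPM in HIF1a-ko hypoxia, 148 ± 11.1 CPM in R26 hypoxia and 172 ± 12 CPM in R26 normoxia, with -0.22 ± 0.07, adjusted p = 0.0534 in the oxygen comparison, where it was called without R26 normoxia 1 or R26 hypoxia 3 (adjusted p = 0.046 or 0.0232) by DESeq2 (adjusted p = 0.034) and in the 6 shallower libraries (adjusted p = 0.00841).

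The 2 Insig genes went opposite ways in low oxygen. Insig1, a SREBP target that retains Scap in the endoplasmic reticulum (ENSMUSG00000045294, chromosome 5, 28071363 to 28078662, plus strand), had 74.5, 69.5 and 70.3 CPM in HIF1a-ko hypoxia, 45.3, 43.6 and 47.4 CPM in R26 hypoxia and 127, 139.8 and 140.5 CPM in R26 normoxia. The groups were far apart: Insig1 fell 2.99-fold in R26 hypoxia relative to normoxia (-1.58 ± 0.06, adjusted p = 2.88e-07), was 1.57-fold higher in HIF1a-ko hypoxia than in R26 hypoxia (0.65 ± 0.06, adjusted p = 1.24e-05), and stayed 1.9-fold below R26 normoxia in HIF1a-ko hypoxia (-0.93 ± 0.06, adjusted p = 1.73e-06). Insig2, its homologue with the same retaining role, had 36.8, 42.3 and 39.1 CPM in HIF1a-ko hypoxia, 41.6, 38.6 and 41.8 CPM in R26 hypoxia and 31.6, 30.3 and 30.4 CPM in R26 normoxia. Both hypoxic groups overlapped each other and were above all R26 normoxia libraries, with 0.40 ± 0.06, adjusted p = 0.00148 for R26 hypoxia and 0.35 ± 0.06, adjusted p = 0.00137 for HIF1a-ko hypoxia. Between HIF1a-ko hypoxia and R26 hypoxia the value was -0.05 ± 0.06, adjusted p = 0.58.

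**Figure D4:**
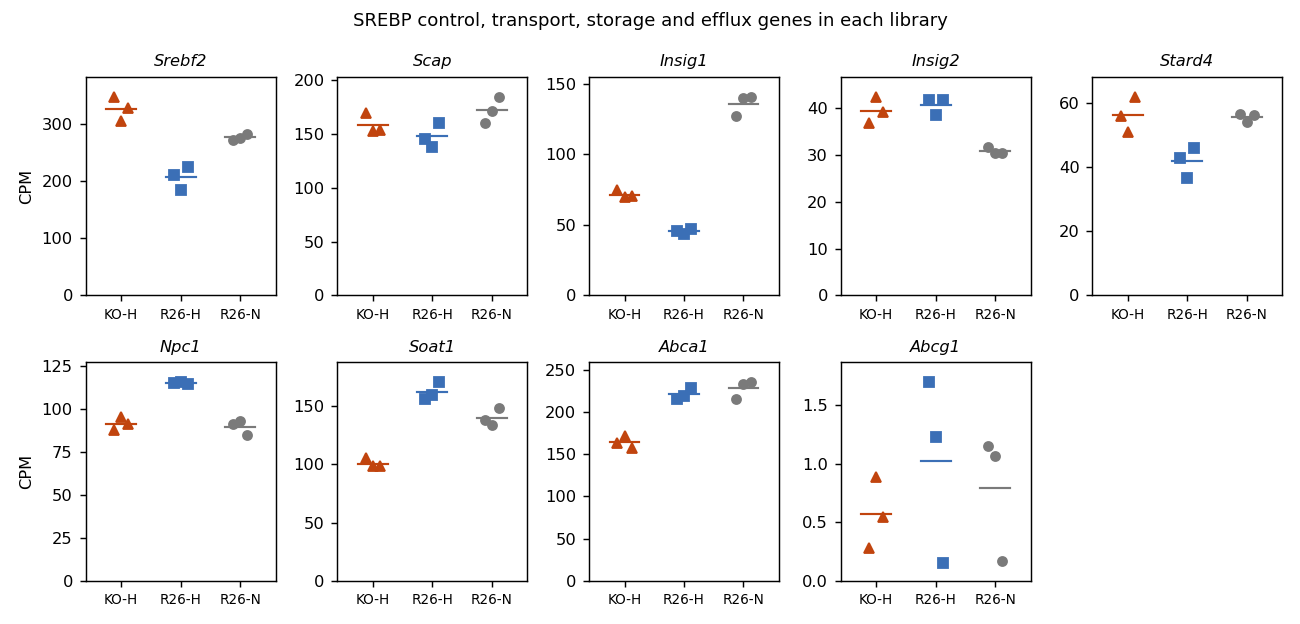
CPM (vertical axes from 0, 1 panel per gene) of the 9 genes of SREBP control, transport, storage and efflux in HIF1a-ko hypoxia (KO-H), R26 hypoxia (R26-H) and R26 normoxia (R26-N); points are libraries 1 to 3 from left to right and lines are group means. Insig1 lies at 43.6 to 47.4 CPM in R26-H against 127 to 141 CPM in R26-N, and Insig2 is above R26-N in both hypoxic groups.

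Of the 3 genes that move and store cholesterol, 2 were higher and 1 lower in R26 hypoxia than in R26 normoxia, and 1 was higher and 2 lower in HIF1a-ko hypoxia than in R26 hypoxia. Of all genes, 13.1% were higher and 12.7% lower in the first comparison, and 22.6% higher and 24.1% lower in the second. Stard4, a cytosolic carrier of sterols between membranes, averaged 56.2 ± 5.43 CPM in HIF1a-ko hypoxia, 41.7 ± 4.67 CPM in R26 hypoxia and 55.5 ± 1.26 CPM in R26 normoxia. It was lower in R26 hypoxia than in R26 normoxia (-0.41 ± 0.09, adjusted p = 0.00952) and higher in HIF1a-ko hypoxia than in R26 hypoxia (0.43 ± 0.09, adjusted p = 0.00349). Npc1, which exports cholesterol taken up with lipoproteins from the lysosome, had 87.9, 95.2 and 90.9 CPM in HIF1a-ko hypoxia, 115, 115 and 114 CPM in R26 hypoxia and 91, 92.8 and 84.8 CPM in R26 normoxia. R26 hypoxia lay above the other 6 libraries, with 0.36 ± 0.05, adjusted p = 0.000676 against R26 normoxia and -0.33 ± 0.05, adjusted p = 0.000359 for HIF1a-ko hypoxia against R26 hypoxia.

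Soat1, which esterifies cholesterol for storage in droplets, had 105, 98.4 and 98.6 CPM in HIF1a-ko hypoxia, 156, 159.6 and 171 CPM in R26 hypoxia and 138, 134 and 149 CPM in R26 normoxia. The HIF1a-ko libraries were below all R26 libraries, and Soat1 fell 1.61-fold in HIF1a-ko hypoxia relative to R26 hypoxia (-0.69 ± 0.06, adjusted p = 7.9e-06) and was lower than in R26 normoxia (-0.48 ± 0.06, adjusted p = 0.000104). The rise in R26 hypoxia against normoxia (0.21 ± 0.06, adjusted p = 0.0215) was not called without R26 normoxia 1, R26 normoxia 2 or R26 hypoxia 3 (adjusted p = 0.0772, 0.0832 or 0.0627).

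Of the exporters, Abca1, which loads cholesterol onto lipid-poor apolipoprotein (ENSMUSG00000015243, chromosome 4, 53030787 to 53159895, minus strand), had 163, 171 and 157 CPM in HIF1a-ko hypoxia, 216, 219 and 229 CPM in R26 hypoxia and 216, 233 and 235 CPM in R26 normoxia. Both R26 groups overlapped (-0.04 ± 0.05, adjusted p = 0.601 for R26 hypoxia against R26 normoxia), and HIF1a-ko hypoxia was below all 6 R26 libraries (-0.43 ± 0.05, adjusted p = 8.91e-05 against R26 hypoxia and -0.48 ± 0.05, adjusted p = 5.9e-05 against R26 normoxia). Abcg1, which exports cholesterol to high-density lipoprotein, was barely expressed, at 0.281, 0.889 and 0.549 CPM in HIF1a-ko hypoxia, 1.7, 1.23 and 0.151 CPM in R26 hypoxia and 1.15, 1.07 and 0.169 CPM in R26 normoxia. It was at 0.151 to 0.281 CPM in the 3 deeper libraries and at 0.549 to 1.7 CPM in the 6 shallower ones, the order seen for the sums of epithelial, leukocyte, endothelial and adipocyte markers. No comparison of Abcg1 passed over all libraries (-0.68 ± 0.91, adjusted p = 0.585 for HIF1a-ko hypoxia against R26 hypoxia), and in the 6 shallower libraries it was lower in HIF1a-ko hypoxia than in R26 hypoxia (adjusted p = 0.011).

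Set against R26 normoxia, the hypoxic groups left the genes at different levels. Called lower in R26 hypoxia than in R26 normoxia, higher in HIF1a-ko hypoxia than in R26 hypoxia, and not called between HIF1a-ko hypoxia and R26 normoxia were 11 genes: Acat2, Mvk, Mvd, Fdps, Sqle, Lss, Cyp51, Msmo1, Sc5d, Dhcr7 and Stard4. For these a missing call is not evidence of equal levels. The first 2 of these calls share the R26 hypoxia libraries, so low values there bear on both. The share of all genes with this pattern was not counted. Acat2, at 0.23 ± 0.09, adjusted p = 0.0733 for HIF1a-ko hypoxia against R26 normoxia, was called higher by DESeq2 (adjusted p = 0.043), in the 6 shallower libraries (adjusted p = 0.0337) and without HIF1a-ko hypoxia 2 (adjusted p = 0.00959). Hmgcs1, Idi1 and Insig1 had the same first 2 calls and were also lower in HIF1a-ko hypoxia than in R26 normoxia, at 66.7%, 76.3% and 52.7% of its mean CPM, against 45.9%, 42.7% and 33.5% in R26 hypoxia. Fdft1, Hsd17b7 and Ebp were lower in both hypoxic groups than in R26 normoxia and not called between them. Msmo1 reached 112% of the R26 normoxia mean in HIF1a-ko hypoxia and 42.8% in R26 hypoxia, and Lbr 167% and 92.2%. Pmvk, Scap and Abcg1 passed in none of the 3 comparisons. Whether these patterns differ between genes was not tested.

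**Figure D5:**
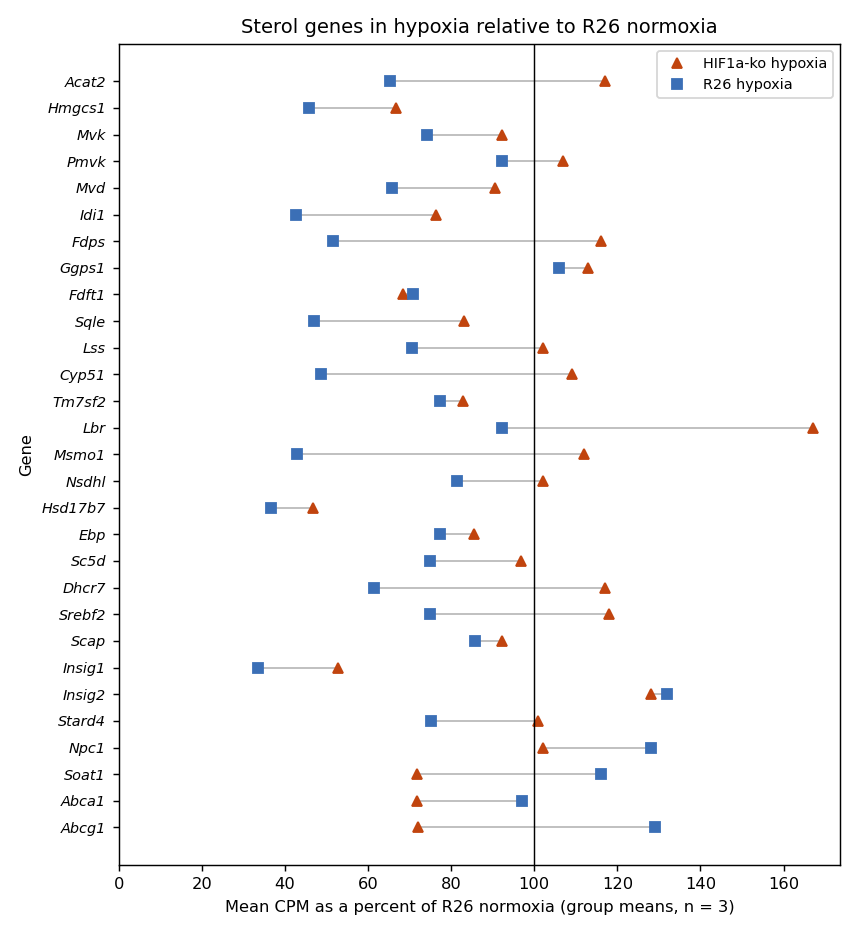
Mean CPM of the 29 genes in HIF1a-ko hypoxia (triangles) and R26 hypoxia (squares) as a percent of the R26 normoxia mean (horizontal axis, vertical line at 100), in pathway order. Insig1 stands at 52.7% and 33.5%, Msmo1 at 112% and 42.8%, and Lbr at 167% and 92.2%.

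Levels of different genes can be set side by side only per length of exon. In R26 normoxia the most abundant were Insig1 (43.9 CPM per kilobase), Srebf2 (38.5), Hmgcs1 (36) and Sqle (25.5), and the least were Dhcr7 (2.95), Tm7sf2 (2.52) and Abcg1 (0.109). In R26 hypoxia Srebf2 stood at 28.8 and Insig1 at 14.7 CPM per kilobase. These lengths join all annotated exons of a gene, so a gene with long rare exons is understated.

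A wider list of 36 sterol and isoprenoid genes, none of them among the 29, moved in both directions. In R26 hypoxia against R26 normoxia 13 were higher and 7 lower (36.1% and 19.4%, against 13.1% and 12.7% of all genes; median log2 fold change 0.14). In HIF1a-ko hypoxia against R26 hypoxia 9 were higher and 16 lower (25% and 44.4%, against 22.6% and 24.1%; median -0.08). In HIF1a-ko hypoxia against R26 normoxia 8 were higher and 14 lower (22.2% and 38.9%, against 19.9% and 22.1%; median -0.05). The shares higher in the last 2 comparisons are near those of all genes. Those named are the called genes with the largest changes in each comparison. Among receptors and carriers of uptake and trafficking, 7 of 11 were higher and 0 lower in R26 hypoxia than in R26 normoxia by edgeR. At an unadjusted p under 0.05, 8 were higher and 2 lower, and DESeq2 called 7 higher and 1 lower. The matching shares of all genes were not counted for these settings.

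Vldlr, a lipoprotein receptor, averaged 258 ± 6.21 CPM in HIF1a-ko hypoxia, 220.2 ± 14.2 CPM in R26 hypoxia and 126 ± 7.3 CPM in R26 normoxia and was higher in each hypoxic group than in R26 normoxia (0.80 ± 0.06, adjusted p = 2.45e-05 for R26 hypoxia and 1.03 ± 0.06, adjusted p = 1.27e-06 for HIF1a-ko hypoxia). Gramd1b, which carries sterol from the plasma membrane to the endoplasmic reticulum, averaged 43.2 ± 1.16 CPM in HIF1a-ko hypoxia, 30.7 ± 1.01 CPM in R26 hypoxia and 22.7 ± 1.62 CPM in R26 normoxia, with 0.93 ± 0.06, adjusted p = 2.8e-06 for HIF1a-ko hypoxia against R26 normoxia. Nceh1, which hydrolyses cholesteryl esters, had 31.1, 30.9 and 32.4 CPM in HIF1a-ko hypoxia, 11, 10.2 and 10.6 CPM in R26 hypoxia and 15.4, 15.9 and 16.7 CPM in R26 normoxia. Its groups were separate, with 1.57 ± 0.06, adjusted p = 7.99e-08 for HIF1a-ko hypoxia against R26 hypoxia, -0.60 ± 0.06, adjusted p = 0.000116 for R26 hypoxia against R26 normoxia and 0.97 ± 0.06, adjusted p = 1.29e-06 for HIF1a-ko hypoxia against R26 normoxia. Nceh1 acts opposite to Soat1 on esters.

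Nr1h3, the liver X receptor alpha, averaged 4.8 ± 0.391 CPM in HIF1a-ko hypoxia, 9.62 ± 0.905 CPM in R26 hypoxia and 6.07 ± 0.658 CPM in R26 normoxia, higher in R26 hypoxia than in R26 normoxia (0.66 ± 0.11, adjusted p = 0.00232) and 2-fold lower in HIF1a-ko hypoxia than in R26 hypoxia (adjusted p = 6.83e-05). Pdss1, a synthase of the ubiquinone side chain, averaged 7.01 ± 0.528 CPM in HIF1a-ko hypoxia, 3.55 ± 0.669 CPM in R26 hypoxia and 6.43 ± 0.349 CPM in R26 normoxia (-0.86 ± 0.13, adjusted p = 0.00148 for R26 hypoxia against R26 normoxia and 0.99 ± 0.13, adjusted p = 0.000196 for HIF1a-ko hypoxia against R26 hypoxia). The oxysterol enzymes Ch25h and Cyp7b1 and the exporter Abcg4 were scarce, at 0.136 to 1.72 CPM in every library, and each was lower in HIF1a-ko hypoxia than in R26 hypoxia (-1.50 ± 0.31, adjusted p = 0.0032 for Ch25h, -1.52 ± 0.23, adjusted p = 0.000415 for Cyp7b1 and -1.04 ± 0.26, adjusted p = 0.00817 for Abcg4). Ch25h was also higher in R26 hypoxia than in R26 normoxia (1.37 ± 0.31, adjusted p = 0.0114), and Cyp7b1 lower in HIF1a-ko hypoxia than in R26 normoxia (-1.14 ± 0.24, adjusted p = 0.00417, but adjusted p = 0.0533 in the 6 shallower libraries).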

How the data were processed

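The build GRCm38 and the tools featureCounts, STAR, Trimmomatic, bcl2fastq 2.17 and DESeq2 are named per the submitters' processing notes. Their settings, annotation release and strand option were not given in the sources used here. The authors deposited 1 table of whole-number counts per Ensembl gene, without normalization. Each of its 9 columns was matched to a sample by name. Symbols came from GENCODE M21, which paired 48970 of 49315 identifiers. The 29 genes, the wider list, the markers and the motifs were chosen with earlier results of these data known.

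The test was that of edgeR 4.0.16 (R 4.3.3), with TMM scaling, filterByExpr, glmQLFit and glmQLFTest on all 9 libraries with group as the only term, two-sided, with Benjamini-Hochberg adjustment over 18211 genes. A gene is called, and described as higher or lower, at an adjusted p under 0.05. CPM are edgeR's counts scaled to library size and TMM factors. The log2 CPM of the gene sets add a prior count of 2. SE is the log2 fold change divided by the square root of the F statistic. The method was also run on simulated counts, with few changed genes and none differing by depth class. These data differ in both, so that run cannot vouch for the p-values here. Libraries of a group differed beyond counting noise (chi-square per degree of freedom 6.18 to 63). All 29 genes are named, and of the wider list up to 4 called genes with the largest change in each comparison. Levels per kilobase use the union of exons in GENCODE M21, and shared sequence was counted over stretches of 75 bases.

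Same-numbered R26 hypoxia and R26 normoxia libraries deviated together from their group means (correlations 0.48, 0.53 and 0.85), and a fit with the number as a block is therefore given for that comparison. Unlike numbers correlated as highly among the shallower libraries (0.59 for R26 hypoxia 1 with R26 normoxia 2, and 0.50 for R26 hypoxia 2 with R26 normoxia 1), and those with a deeper library 3 were negative (-0.71 to -0.62). The agreement thus follows depth, and libraries 1 and 2 are not shown to pair by number. The replicate block in a fit of these 2 groups called 7411 genes in place of 4697, and of the 29 called 24 (3 higher, 21 lower) in place of 22. Alternatives were DESeq2 1.42.0, other scaling factors, no filter, only the compared groups, the replicate block, depth class as a term, the 6 shallower libraries, and leaving out each library.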

Additional observations from a re-analysis of the deposited data

How the results depend on the processing

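In the alternatives run (other scaling factors, DESeq2, no filter, only the compared groups, replicate block, depth class as a term, the 6 shallower libraries, each library left out, and, for the gap below, only enzymes after squalene), 364 of 381 summary values held. A count of genes held where the larger and smaller count stood at no more than 3 to 2, so a held count may have moved. A gap held where it kept its sign and moved by less than 0.036, the pooled SD of the per-library differences. Of the values for single genes 1471 held, 38 gained a call, 40 lost one and 17 turned sign. With the replicate block in a fit of R26 hypoxia and R26 normoxia alone 7411 genes were called (3910 higher, 3501 lower), and with depth class as a term 7095 (3619 lower), in place of 4697 (2392 and 2305). The block also called Nsdhl and Scap lower in that comparison (adjusted p = 0.00468 and 0.00372); it changed no other call there among the 29. In the other comparisons, same-numbered libraries deviated together only for number 2 (correlations -0.66, 0.57 and -0.65 for HIF1a-ko hypoxia against R26 hypoxia, and -0.62, 0.59 and -0.67 against R26 normoxia). Numbers 1 and 3 there join a deeper and a shallower library. The deeper HIF1a-ko hypoxia 1 correlated at 0.83 with R26 hypoxia 3 and at 0.84 with R26 normoxia 3. Pairing by number thus cannot be told from depth. In these 2 comparisons the replicate block in fits of the compared groups alone called 19 and 11 of the 29 genes in place of 20 and 12. The gap between oxygen-using and other enzymes was -0.69, 0.65 and 0.02 (R26 hypoxia against normoxia, HIF1a-ko against R26 hypoxia, HIF1a-ko hypoxia against R26 normoxia) when only enzymes after squalene were compared, an alternative chosen after seeing the data, and -0.61 and 0.13 for the first and the last in the 6 shallower libraries. Leaving out 1 library gave gaps of -0.60 to -0.52, 0.54 to 0.62 and 0.07 to 0.13, 3384 to 4542, 7440 to 8674 and 6555 to 8204 genes called, and 2 to 4 of the 29 called higher in HIF1a-ko hypoxia than in R26 normoxia (2 without R26 normoxia 1, R26 normoxia 2 or HIF1a-ko hypoxia 1). With no filter on low counts, Tm7sf2 in the oxygen comparison (adjusted p = 0.0664) and Ggps1 and Ebp in HIF1a-ko hypoxia against R26 normoxia (0.0643 and 0.103) were not called. Depth class as a term called Scap in all 3 comparisons (-0.22, 0.10 and -0.12, with adjusted p = 0.000854, 0.0434 and 0.0267, in the order of the gaps above), and also Nsdhl in the first, Hsd17b7 in the second, and Acat2, Sqle, Tm7sf2 and Dhcr7 in the third. Signs turned only for values that were not called. In the 6 shallower libraries Fdft1 was at 0.00 and Insig2 at 0.03 for HIF1a-ko against R26 hypoxia, and Lss at -0.01 for HIF1a-ko hypoxia against R26 normoxia. With 1 library left out, Abcg1 ran from -0.41 to 1.14 in the oxygen comparison and -1.07 to 0.13 against R26 normoxia, Fdft1 -0.12 to 0.01 and Insig2 -0.10 to 0.01 for HIF1a-ko against R26 hypoxia, and Lss -0.01 to 0.11, Stard4 -0.02 to 0.09, Sc5d -0.07 to 0.00, Npc1 -0.00 to 0.08 and Nsdhl -0.08 to 0.15 for HIF1a-ko hypoxia against R26 normoxia. The cause of these changes was not tested. No scaling moved the median of all genes by more than 0.1 on the log2 scale. Scaling of this kind takes most genes as unchanged, so this median cannot show a shift in total RNA.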
